A study of Mus musculus with 6 samples.

Results

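The genes described here are 7 transcription factors of the T-box family (Tbx2, Tbx3, Tbx4, Tbx5, Tbx15, Tbx18 and Tbx20), taken by symbol from the 27179 genes of a count table of cancer-associated fibroblasts (CAFs). RNA sequencing was carried out on CAFs sorted from 3 mammary tumors of raGFP-Wnt1 female mice. These mice carry the MMTV-Wnt1 transgene of the FVB/NJ strain, in which a mammary tumor virus promoter drives Wnt1 mainly in mammary epithelium, together with 1 copy of a knock-in of a nuclear green fluorescent protein (H2B-GFP) at the Pdgfra locus, kept on C57BL/6. Both groups share these alleles, and GFP+ cells of each tumor were sorted into a CD34 negative (CD34-) and a CD34 positive (CD34+) fraction, which gave 3 libraries per group. The sort was therefore set to leave out cells that do not use the Pdgfra promoter, although epithelial and endothelial markers, described below, had counts in these libraries. The age of the mice, whether the tumors came from separate animals and the mammary gland in which each tumor arose were not given in the sources used here, so p-values measure the spread between these samples.

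T-box factors bind DNA through a conserved domain, the T-box, and pattern the mesenchyme of limb, heart, skin and mammary bud, often in combinations of neighbouring family members. Tbx2 and Tbx3 are mainly repressors, known for silencing the cell cycle inhibitor genes Cdkn1a and Cdkn2a, and loss of Tbx3 impairs formation of the mammary bud. Tbx5 acts in forelimb and heart, Tbx4 in hindlimb and lung mesenchyme, Tbx15 in dermis and skeleton, Tbx18 in mural cells, epicardium and somites, and Tbx20 in heart.

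The 7 genes are shown first by a coding stretch of 30 bases from the T-box, the stretch in which they are most alike, because it shows both how closely related they are and that each still carries its own sequence. Capitals mark a base that differs from the most common base of the 7 genes at that position. At 1 position c and a are equally common, and both are in lower case. The stretches are read 5′ to 3′ on the gene's strand from GRCm38 with the GENCODE M21 annotation.
Tbx2: ggcacCgagatgGtcatcaccaagTccggG
Tbx3: ggTacagagatgGtcatcacGaagTcaggA
Tbx4: ggcacGgagatgatcatcaccaaggccggc
Tbx5: ggcacagagatgatcatcaccaaggcaggG
Tbx15: ggAacagagatgatcatcaccaaAgcaggc
Tbx18: ggcacCgagatgatcatcaccaaAgccggc
Tbx20: ggcacGgagatgatAatcaccaagTcTggc

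Of the 30 positions, 21 were the same in all 7 genes. Tbx3 had 5 bases in capitals, and Tbx4 and Tbx5 had 1 each. Each stretch lies within 1 coding exon, at chr11:85833470-85833499 for Tbx2, chr5:119672373-119672402 for Tbx3, chr11:85890920-85890949 for Tbx4, chr5:119838759-119838788 for Tbx5 and chr3:99309012-99309041 for Tbx15, all on the plus strand. Those of Tbx18 (chr9:87729463-87729492) and Tbx20 (chr9:24770682-24770711) lie on the minus strand. Over the whole coding sequence, Tbx2 and Tbx3 were 63.1% identical, Tbx4 and Tbx5 63.6%, and Tbx15 and Tbx18 62.5%, whereas the other combinations reached 43.6% to 53.1%. The longest run shared exactly between any 2 coding sequences was 23 bases, in Tbx4 with Tbx5 and in Tbx15 with Tbx18.

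Some of the genes also lie close together in pairs. Tbx2 (gene 21385, chromosome 11, 85832615 to 85841948) and Tbx4 (gene 21387, chromosome 11, 85886367 to 85916097) are separated by 44418 bases with no annotated gene between them. Tbx3 (gene 21386, chromosome 5, 119670534 to 119684724) and Tbx5 (gene 21388, chromosome 5, 119796514 to 119885220) are separated by 111789 bases, which hold 2 noncoding genes and 0 protein-coding genes. Tbx15 (gene 21384) lies at 99240348 to 99354260 of chromosome 3. Tbx18 (gene 76365, 87702800 to 87731260) and Tbx20 (gene 57246, 24720812 to 24774303) are both on chromosome 9. Promoter sequences, running from upstream of the start site into the first transcribed bases, were in the RefSeq table used here for Tbx4, Tbx18 and Tbx20. On either strand, the T-box half-site AGGTGTGA was in 0 of these 3 promoters and in 1.28% of all 32851. Its shorter form GGTGTGA was in 0 of 3 against 3.98%, and GGTGNGA, which includes it, was in that of Tbx18 against 17.7%.

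Libraries held 16238059 to 86609267 counts and detected 14314 to 19220 genes, with the smallest number of genes in CD34 negative library 3 and the shallowest depth in CD34 positive library 1. The limit that a count of 0 allows (3 counts) corresponds to 0.0346 to 0.185 in counts-per-million units (CPM) depending on the library, and covers counting error only. The sorted marker behaved as labelled. Cd34 was at 678, 563 and 1605 CPM in CD34 positive libraries of tumors 1, 2 and 3 and at 79.2, 42.0 and 102 CPM in CD34 negative libraries, a value that the sort itself sets. Pdgfra, whose promoter drives the GFP, ranged from 302 to 506 CPM. Fibroblast markers (5 of 5 tested) summed to 40720 to 54490 CPM in CD34 negative and 40180 to 41550 CPM in CD34 positive CAFs. Col1a1 and Col1a2 carried most of this sum, while Dcn and Lum were lower in CD34 negative CAFs with the tumor block described next (log2 fold change -1.12 and -0.73, limma-voom adjusted p = 0.00154 and 0.0140).

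Tbx15 was by far the most abundant of the 7 genes and Tbx20 had no count in any library. Per gene length, as CPM divided by gene length in kilobases (RPKM), Tbx15 stood at 39.2 ± 8.16 (SD over 6 libraries), followed by Tbx18 at 6.27 ± 1.96, Tbx3 at 5.80 ± 3.15, Tbx2 at 4.16 ± 1.97, Tbx5 at 1.17 ± 1.46 and Tbx4 at 0.198 ± 0.205. Tbx15, known from dermal and skeletal mesenchyme, made up 61.6% to 76.3% of the summed RPKM of the 7 genes, and its range of 32.1 to 54.6 RPKM did not reach the Tbx18 range of 4.23 to 9.14. No other neighbours in this order had separate ranges. Tbx18 was above Tbx3 in 3 of 6 libraries, Tbx3 above Tbx2 in 5, Tbx2 above Tbx5 in 5, and Tbx5 above Tbx4 in 4.

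**Figure D1:**
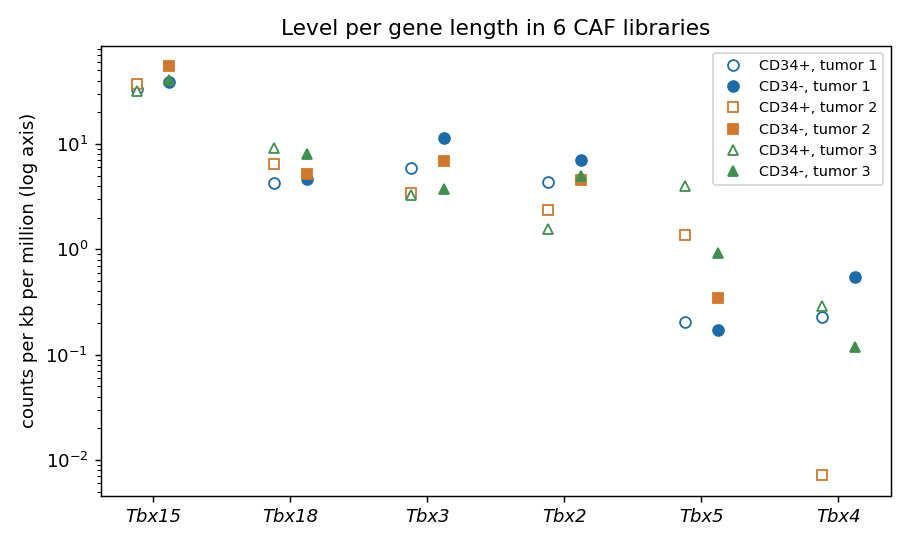
Level per gene length (RPKM, log axis) of 6 T-box genes in the 6 CAF libraries, with 1 symbol per library, open for CD34+ and filled for CD34-, and shapes and colors for the tumor. Tbx15 lies above the others in each library, Tbx4 in CD34 negative library 2 (0 counts) cannot be drawn on a log axis, and Tbx20, with 0 counts throughout, is left out.

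The first comparison asked whether T-box genes differ by CD34 status of the CAFs. Tbx2 and Tbx3 were higher and Tbx5 was lower in CD34 negative CAFs, by value in each of the 3 tumors. Exact Poisson 95% intervals (counting error only) overlapped between the fractions for Tbx3 in tumor 3 and for Tbx5 in tumor 1. For Tbx3 they were 17.6 to 20.4 CPM in CD34 negative and 15.3 to 18.4 CPM in CD34 positive CAFs. For Tbx5 they were 0.479 to 0.929 CPM and 0.428 to 1.38 CPM in the same order. The other intervals of Tbx2, Tbx3 and Tbx5 did not overlap between the fractions of a tumor. These genes passed the limma-voom threshold (adjusted p under 0.05) only in the fit that pairs both fractions of a tumor as a block. Without the block, 0 of the 6 tested members passed, where 0.121% of all 14855 tested genes passed (18 genes). An unadjusted p under 0.05 was found for 1 member (Tbx2), and for 14.3% of all genes. With the block, 2 members passed as higher, where 4.32% of all genes did, and 1 as lower, where 4.25% did, from 8.57% in either direction. The median log2 fold change over the 6 members was 0.55 without and 0.21 with the block, against -0.03 and -0.01 over all tested genes. In 3 of 3 tumors the CD34 negative fraction had the higher value for Tbx2, Tbx3 and Tbx15, as for 22.8% of all genes, and the lower value for Tbx5, as for 23.4%. Groups did not overlap, with CD34 negative higher, for Tbx2 and Tbx15, as for 10.4% of all genes. In bulk RNA of sorted cells, fewer cells that express a gene and less of its RNA per cell cannot be told apart.

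Tbx2, a repressor of cell cycle inhibitor genes, had 15.5, 8.47 and 5.61 CPM in CD34 positive CAFs of tumors 1, 2 and 3, and 25.3, 16.2 and 17.7 CPM in CD34 negative CAFs. All CD34 negative libraries were above all CD34 positive ones, with means of 19.7 ± 4.91 and 9.87 ± 5.11 CPM (SD, n = 3), and the ratio within a tumor was 1.63, 1.91 and 3.16. The log2 fold change was 1.23 ± 0.33 (SE, 95% interval 0.47 to 1.99, limma-voom adjusted p = 0.159). With the tumor block it was 1.02 ± 0.25 (0.46 to 1.59, adjusted p = 0.0366). This call held without tumor 3 (adjusted p = 0.0214) and was lost without tumor 1 (0.0691) or tumor 2 (0.167).

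Tbx3, its closest relative among the 7 genes and the one tied to the mammary bud, had 30.02, 17.6 and 16.8 CPM in CD34 positive and 58.4, 35.2 and 19.0 CPM in CD34 negative CAFs. The groups overlapped because CD34 negative library 3 lay between CD34 positive libraries, and means were 37.5 ± 19.8 and 21.5 ± 7.41 CPM. Ratios within a tumor were 1.95, 2.00 and 1.13, so that tumor 3 differed least here, whereas it differed most for Tbx2. The log2 fold change was 0.86 ± 0.42 (-0.10 to 1.83, limma-voom adjusted p = 0.395) and 0.81 ± 0.20 (0.35 to 1.26, adjusted p = 0.0388) with the block. Here too the blocked call held without tumor 3 (adjusted p = 0.0030) and was lost without tumor 1 (0.116) or tumor 2 (0.367).

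Tbx5, the forelimb and heart factor, showed the opposite direction and the widest spread of the genes that moved. It had 0.805, 5.40 and 15.7 CPM in CD34 positive CAFs of tumors 1, 2 and 3 and 0.677, 1.37 and 3.66 CPM in CD34 negative CAFs. Both fractions were lowest in tumor 1 and highest in tumor 3, which makes the groups overlap. The CD34 negative to CD34 positive ratio was 0.841 in tumor 1, where 13 and 38 counts lay behind the values, and 0.254 and 0.233 in tumors 2 and 3. The log2 fold change was -2.005 ± 0.98 (-4.26 to 0.25, limma-voom adjusted p = 0.398), and -1.94 ± 0.44 (-2.93 to -0.94, adjusted p = 0.0268) with the block. The blocked call held without tumor 3 (0.0434) and was lost without tumor 1 (0.0681) or tumor 2 (0.0858). Tbx5 overlaps the noncoding gene Gm5563, which had 180 counts over all libraries. In tumor 1 Gm5563 had 9 counts in the CD34 positive and 15 in the CD34 negative library, where Tbx5 had 13 and 38. In tumor 2 Gm5563 had 91 and 22 counts, where Tbx5 had 461 and 62. In tumor 3 it had 43 and 0, where Tbx5 had 446 and 133. The part of Gm5563 in the difference of Tbx5 was not tested. Without strand in the counting, reads of Tbx5 and Gm5563 could not be told apart. Further noncoding genes overlap Tbx3 (Tbx3os1) and Tbx15 (Gm46817 and Gm52611). They were not among the genes counted and could not be analysed here.

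**Figure D2:**
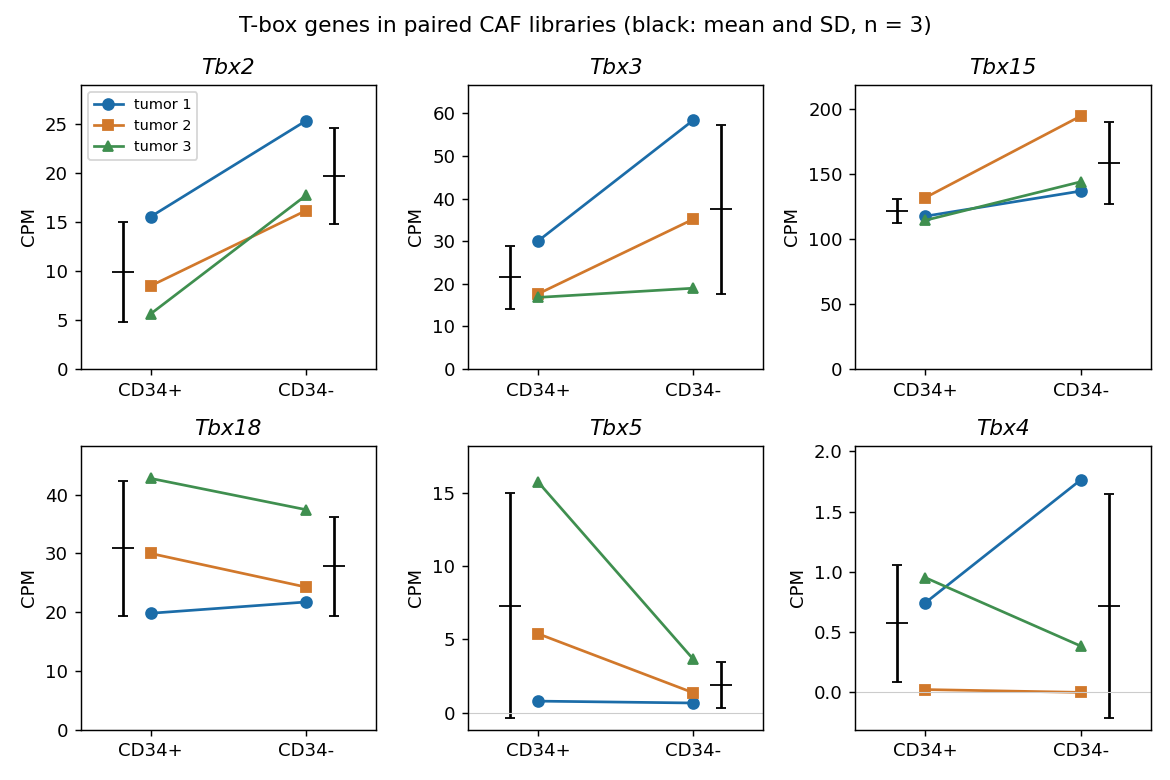
TMM-scaled CPM of 6 T-box genes in CD34+ and CD34- CAFs, with a line joining the libraries of 1 tumor and black bars for the mean and SD of 3 libraries. The lines of Tbx2, Tbx3 and Tbx15 rise and those of Tbx5 fall in 3 of 3 tumors, while those of Tbx4 and Tbx18 go in both directions, and each panel has its own axis.

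Tbx15 and Tbx18, repressors that recruit Groucho cofactors, did not pass in either fit. Tbx15 had 118, 132 and 114 CPM in CD34 positive and 137, 195 and 144 CPM in CD34 negative CAFs. The groups did not overlap but the distance was small, with ratios of 1.16, 1.48 and 1.26 and a log2 fold change of 0.38 ± 0.19 (-0.05 to 0.81, limma-voom adjusted p = 0.407; 0.38 ± 0.13 and adjusted p = 0.118 with the block). Tbx18 had 19.8, 29.99 and 42.8 CPM in CD34 positive and 21.7, 24.3 and 37.4 CPM in CD34 negative CAFs. In both fractions it was lowest in tumor 1 and highest in tumor 3, and the log2 fold change was -0.21 ± 0.30 (-0.90 to 0.48, adjusted p = 0.789; -0.18 ± 0.17, interval -0.56 to 0.21, adjusted p = 0.606 with the block).

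Tbx4, the hindlimb and lung gene, was low and uneven, with 12, 2 and 27 counts in CD34 positive and 99, 0 and 14 counts in CD34 negative libraries. CD34 negative library 1 had 1.76 CPM (exact Poisson 95% interval 1.43 to 2.15, counting error only). The same kind of interval for 0 counts in CD34 negative library 2 reached 0.0817 CPM. The CD34 negative fraction had the higher value in 1 of 3 tumors. The log2 fold change of 0.72 ± 2.23 had an interval of -4.38 to 5.82 (limma-voom adjusted p = 0.913), so a difference between the groups was not detectable in either direction given the spread between libraries.

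**Figure D3:**
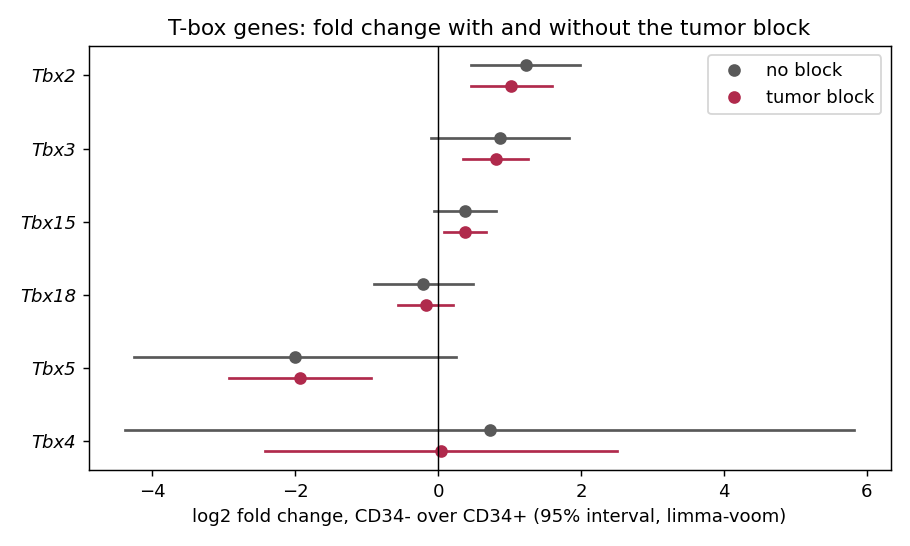
Log2 fold change of CD34- over CD34+ CAFs with its 95% interval from limma-voom for 6 T-box genes, in gray without and in red with the tumor block. The blocked intervals of Tbx2, Tbx3, Tbx5 and Tbx15 lie clear of 0, although the adjusted p of Tbx15 (0.118) is above the threshold, and that of Tbx4 is the widest.

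The count of members called depended on the tool. With the tumor block, edgeR's quasi-likelihood test called 0 of 6 (adjusted p = 0.0784 for Tbx2, 0.131 for Tbx3 and 0.185 for Tbx5; 4 with an unadjusted p under 0.05), where it called 3.87% of all genes. DESeq2 called 2, Tbx2 (0.00812) and Tbx5 (0.0436), where it called 12.4% of the 13991 genes with an adjusted p. Data were also simulated from edgeR's own negative binomial fit. On them, the blocked limma-voom and DESeq2 fits made more false calls than the threshold allows, and the blocked edgeR fit did not. As edgeR was judged on data of its own model, this cannot rank the tools. The false calls bear on the blocked limma-voom and DESeq2 calls given here. How many of those calls are false in these data was not measured.

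Markers of mural cells, a cell type in which Tbx18 is known to be expressed, differed between the fractions in both directions. All 7 listed markers were tested and none was at 0. Their summed level was 201.2 to 241.9 CPM in CD34 negative and 86.98 to 188.0 CPM in CD34 positive CAFs. With the block 4 were higher, where 4.32% of all genes were, and 2 (Abcc9 and Kcnj8) were lower, where 4.25% were. The part of the mural markers in the differences of Tbx2, Tbx3 and Tbx5 was not tested. Of the skeletal muscle markers, Des, which is also in the mural list, was at 2.85 to 13.1 CPM in CD34 negative and 0.743 to 1.39 CPM in CD34 positive CAFs, and it carried the summed level (2.865 to 13.68 and 1.501 to 1.848 CPM). Acta1 did not exceed 1.11 CPM in any library and Myod1 was at 0. Epithelial markers were higher in the CD34 negative fraction within 3 of 3 tumors, with sums of 129.1, 114.5 and 44.32 CPM against 119.7, 73.85 and 12.2 CPM. With the block 0 of these 5 markers passed. An unadjusted p under 0.05 was found for 3 (Krt8, Krt18 and Krt5), all higher in CD34 negative CAFs, as for 11.6% of all genes. The summed mesothelial markers, with Lrrn4 at 0, were also higher within 3 of 3 tumors, at 20.42, 28.53 and 12.69 CPM against 16.26, 25.99 and 8.271 CPM. Krt19 carried most of this sum, at 19.14, 22.939 and 10.563 CPM against 13.865, 18.015 and 7.7263 CPM. Wt1 was at 2.51, 5.25 and 0 CPM against 2.48, 8.30 and 0 CPM. Msln did not exceed 0.141 CPM, and Upk3b reached 1.76 CPM in CD34 negative library 3. The sum therefore mainly follows Krt19. The part of the epithelial marker and Krt19 shifts in the paired differences of Tbx2 and Tbx3 was not tested. Endothelial (5.126 to 17.09 and 6.35 to 28.21 CPM), leukocyte (9.684 to 11.21 and 5.111 to 11.67 CPM) and Schwann cell markers (7.788 to 16.77 and 11.13 to 18.23 CPM) overlapped between CD34 negative and CD34 positive CAFs and went in both directions within tumors. Adipocyte markers stayed between 0 and 0.919 CPM, with Lep and Cidec at 0.

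The second comparison asked whether T-box genes differ between the 3 tumors, with the fraction in the model. Of the 6 members, Tbx3 passed (limma-voom F-test, adjusted p = 0.0421), where 4.03% of all genes did. In both fractions it was highest in tumor 1. This call was lost without CD34 negative library 1 (adjusted p = 0.400) or without tumor 1 (0.427). The other members had adjusted p values of 0.233 (Tbx2), 0.159 (Tbx4), 0.134 (Tbx5), 0.324 (Tbx15) and 0.108 (Tbx18). The DESeq2 likelihood ratio test on all libraries called Tbx5 (0.000916), Tbx18 (0.0255) and Tbx4 (0.0458) beside Tbx3, where it called 1525 genes (10.3%). Without the filter on low counts limma-voom called Tbx4 (0.0460), where it called 1.99% of 20392 genes. Several members passed when libraries of tumor 3 were left out, but so did many more genes in all, at 13.7% without CD34 negative library 3, 33.6% without CD34 positive library 3 and 15.1% without both. Tbx4 passed without CD34 negative library 3 (0.0168), CD34 positive library 3 (0.0135) or both (0.0069), Tbx2 without the same (0.0389, 0.0455 and 0.0331), Tbx5 without either single library (0.0154 and 0.0236) and Tbx18 without CD34 positive library 3 (0.0435).

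Between tumors, 4.03% of all genes passed the same test, and 2 of 14 tested genes of the regulated list named below did. Among genes of the limb and mammary bud list, 4 of 17 tested passed. Hoxc8 had 2.35, 50.5 and 20.4 CPM in CD34 positive and 2.07, 56.8 and 29.6 CPM in CD34 negative CAFs of tumors 1, 2 and 3 (F-test adjusted p = 0.00371, and 0.187 without CD34 negative library 1). Hoxc10, which marks more caudal segments, had 19.4, 0.410 and 27.7 CPM and 23.7, 0.133 and 41.8 CPM (adjusted p = 0.00513, and 0.222 without tumor 2). The other 2 were Hoxc6 (adjusted p = 0.0391), lost without CD34 negative library 1 (0.999981) or tumor 1 (0.734), and Pthlh, a hormone-related peptide gene of the mammary bud (0.0392), lost without any library or tumor outside tumor 3 (0.0946 to 0.647). In the list of regulated genes, Wt1 (0.0148) and Slit3 (0.0391) passed, Wt1 being lost without tumor 1 (0.0942) or 2 (0.196) and Slit3 without tumor 1 (0.325), tumor 2 (0.238) or CD34 positive library 1 (0.0728) or 2 (0.246). Tbx4 was likewise lowest in tumor 2 in both fractions, with 2 and 0 counts. Isl1, a hindlimb field gene, had 89 and 303 counts in the CD34 positive and CD34 negative libraries of tumor 1 and at most 1 in any other. Tbx1, a family member outside the 7, had counts almost only in tumor 3, at 39 in the CD34 positive and 179 in the CD34 negative library. Hoxc6, Hoxc8, Pthlh, Wt1, Slit3 and Isl1 were chosen for naming here after their values were seen. So were Dcn, Lum and the single mural, epithelial, mesothelial and muscle markers. Isl1 and Tbx1 were not tested.

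**Figure D4:**
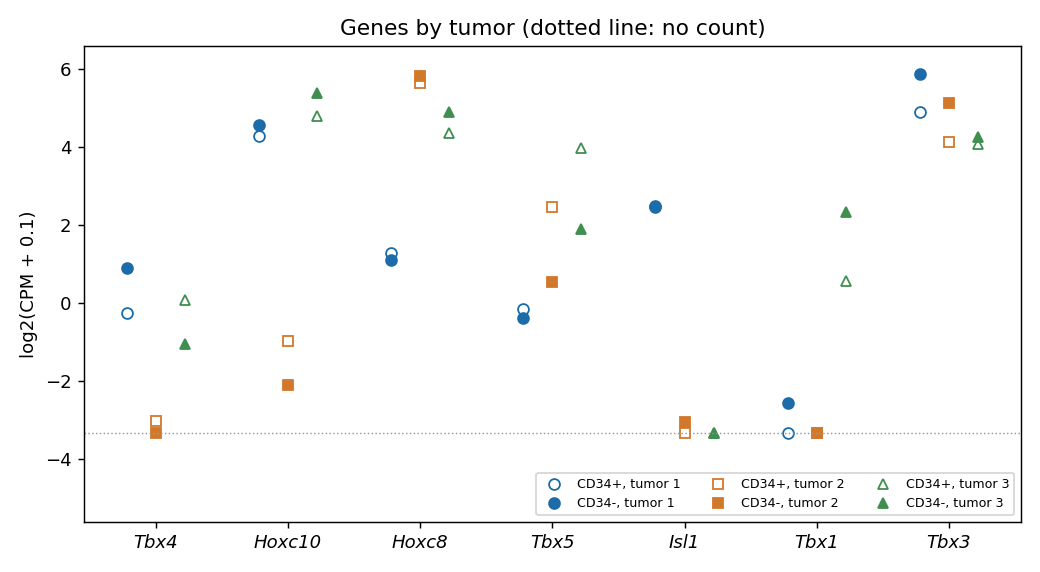
Levels of 7 genes as log2(CPM + 0.1), with 1 symbol per library, open for CD34+ and filled for CD34-, grouped by tumor, and a dotted line where a library has no count. Both fractions of a tumor lie close together for Hoxc8, Hoxc10 and Isl1, and Tbx4 and Hoxc10 are both lowest in tumor 2.

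Among the 10 other T-box family genes, 3 (T, Tbx19 and Tbx22) had no count, 2 were tested and 0 passed in either fit. Tbx6, known from presomitic mesoderm, had 0.743, 0.234 and 0.5998 CPM in CD34 positive and 1.85, 1.13 and 2.26 CPM in CD34 negative CAFs. These groups did not overlap, and the log2 fold change was 2.17 (limma-voom adjusted p = 0.292, and 0.237 with the block). Mga, which joins a T-box to a Max-binding domain, was at 71.8 to 111 CPM. Eomes had 15 counts in all, Tbr1 7, Tbx21 30 and Tbx10 1. Of 15 cofactors and partner factors, 11 were tested and 0 passed in either fit. The 2 most abundant were Chd4, a chromatin remodeler, at 197 to 335 CPM and Wwtr1, the Hippo pathway coactivator TAZ, at 209 to 329 CPM.

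Genes known to be regulated by T-box factors were measured beside the members. Of 16 listed, 14 were tested, and 0 passed without the block, where 4 had an unadjusted p under 0.05 in each direction, as had 7.23% (higher) and 7.10% (lower) of all genes. With the block 4 were higher and 1 was lower in CD34 negative CAFs, where 4.32% and 4.25% of all genes were, and the median log2 fold change over the 14 genes was 0.12, against -0.01 over all genes. Cdkn1a and Cdkn2a, cell cycle inhibitor genes that Tbx2 and Tbx3 are known to repress, were both among the higher ones. Cdkn2a had 13.6, 18.3 and 4.80 CPM in CD34 positive and 58.6, 69.2 and 61.0 CPM in CD34 negative CAFs, with a log2 fold change of 2.28 ± 0.29 with the block (adjusted p = 0.00233, and 0.0735 without it). Cdkn1a had 369, 225 and 197 CPM against 828, 587 and 816 CPM (1.54 ± 0.17, adjusted p = 0.00143, and 0.0769 without the block). Both groups of values were separate, in the same direction as Tbx2. Frzb, a secreted Wnt inhibitor, was higher by 2.21 ± 0.48 (adjusted p = 0.0220) with the block, but 0.0933 with the block in edgeR and 0.218 without the block. Ndrg1, a stress-responsive gene, was lower at 144, 140 and 175 CPM against 217, 274 and 268 CPM (-0.73 ± 0.13, adjusted p = 0.0109 with the block, and 0.109 without tumor 2). Cdkn1a and Cdkn2a passed with the block in edgeR too (0.0191 and 0.0228), as did Ndrg1 (0.0448).

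Of 25 genes of the mammary and limb buds, 17 were tested, 0 passed without the block, and 1 was higher and 1 lower with it, a share near that of all genes (4.32% and 4.25%). Msx1, a homeobox gene of bud mesenchyme, had 4.33, 5.90 and 3.85 CPM in CD34 positive and 15.5, 17.9 and 5.75 CPM in CD34 negative CAFs (1.49 ± 0.31, adjusted p = 0.0178 with the block, 0.0889 in edgeR, and 0.422 without tumor 2). Bmp2, a ligand known to induce Tbx2 in the heart, moved the other way, from 5.39, 8.31 and 14.9 CPM to 2.92, 1.40 and 6.22 CPM (-1.54 ± 0.40, adjusted p = 0.0472 with the block, 0.111 in edgeR, and 0.102 and 0.294 without tumor 1 and tumor 2).

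Genes with the profile most like each member over the 6 libraries were found by the root mean square difference of centered log2 CPM. For Tbx2 these were Myo10 (0.0964) and Cd74 (0.0981), for Tbx3 Jund (0.106) and Slc27a1 (0.112), for Tbx15 Ptgfrn (0.0694) and Pcsk5 (0.0742), and for Tbx18 Wdr37 (0.0999) and Depdc5 (0.108). Tbx5 was nearest to P2ry14 (0.369) and Oas2 (0.453), and Tbx4 to Slitrk1 (0.930) and Hoxc10 (1.05). The profiles of Tbx4 and Tbx5 themselves spread more, with an SD of 2.73 and 1.60 on the log2 scale against 0.25 to 0.72 for the other members. Among the members themselves, Tbx2 and Tbx3 had the smallest difference (0.449), followed by Tbx15 and Tbx18 (0.520), and Tbx4 and Tbx5 the largest (3.26). This measure grows with the spread of the genes compared. Tbx15 and Tbx18 spread little (SD 0.25 and 0.40), so their small difference does not show a shared profile. Tbx15 was higher in the CD34 negative fraction in 3 of 3 tumors and Tbx18 in 1.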

How the data were processed

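The deposited file held raw read counts per NCBI gene for the 6 libraries, which the authors obtained by aligning reads to GRCm38 (mm10) and counting with Rsubread (featureCounts), per the labels and the study's methods. Strand use and the handling of reads with several matches were not given in the sources used here, so overlapping genes and close copies carry uncertainty. Genes without a symbol were kept. The filterByExpr step (minimum count 10) left 14855 of 27179 genes and 6 of the 7 members. TMM factors were computed with edgeR 4.0.16, and limma 3.58.1 (voom, empirical Bayes, Benjamini-Hochberg adjustment over all tested genes, two-sided threshold 0.05) compared the groups in R 4.3.3. The study's methods name voom and linear models without a design formula, and the main fit had no tumor term. Positive log2 fold changes mean higher in CD34 negative CAFs. CPM of single genes was scaled by library size and TMM factor, summed CPM of lists by the library total, and RPKM used the gene length in the file. DESeq2 1.42.0 and edgeR were alternatives. The group and tumor tests were tested on simulated data.

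Both fractions of a tumor were sorted from 1 tumor, so the tumor number pairs the libraries; deviations from the group means correlated at 0.373, 0.350 and 0.219 in tumors 1, 2 and 3. The members and gene lists were chosen with earlier results of these data known. Named are all members and listed family genes, listed genes past the threshold between the groups or otherwise the 2 most abundant, the 2 genes most like each member, Cd34 and Pdgfra. One listed gene is counted but not reported here. Gene positions are from RefSeq for GRCm38.p6, and coding stretches from GENCODE M21.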

Additional observations from a re-analysis of the deposited data

How the results depend on the processing

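The genes called between the groups (18) numbered 32 with library totals in place of TMM, 9 with edgeR, 674 with DESeq2 and 161 with sample quality weights, and with the tumor as a block 1273 with limma-voom, 575 with edgeR and 1730 with DESeq2. Leaving out single libraries or tumors gave 0 to 86 without the block, and leaving out tumors 1, 2 and 3 gave 1134, 851 and 2019 with it. Members called (0) became 3 with the block in limma-voom, 2 with the block in DESeq2 and 0 to 3 when libraries or tumors were left out. Genes differing between tumors (598) numbered 167 with edgeR, 1525 with the DESeq2 likelihood ratio test and 410 to 5180 without single libraries or tumors; Tbx3 lost its tumor difference with edgeR (adjusted p = 0.139) and without the filter on low counts (0.0848). Tbx4 reversed to -0.055 without the filter, -0.98 with quality weights, -0.45 with the block in edgeR and -0.60 with the block in DESeq2, and ranged from -2.04 to 2.85 without single libraries or tumors (-1.33 with the block and without tumor 1), so no direction is given for it. The cause of these changes was not tested. The other members kept their direction in each alternative run. Without the block, Tbx2 ranged from 1.00 to 1.39, Tbx3 from 0.44 to 1.23 and Tbx5 from -2.45 to -1.32 when libraries were left out, and none passed. Eomes, Tbr1, Tbx21 and Tbx10 held at most 30 counts each over all libraries, too few to be tested.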
